A study of Homo sapiens with 16 samples.

Results

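The genes described here are 9 transcription factor genes of the intestinal lineage: CDX1, CDX2, HNF4A, GATA6, KLF4, KLF5, ATOH1, SOX9 and ELF3. The members were taken from a list of gene symbols with no rule on measured values, but the list was chosen with earlier results of these data known. Counts of members set beside shares of all genes are therefore descriptions, not tests of the set. The members were found by symbol among the 31496 genes to which the deposited transcripts were summed. All 9 had at least 1 transcript in the table. Of the 9, 7 passed the filter on low counts and were among the 19836 genes tested. CDX1 and ATOH1 did not, with at most 3 and at most 9 estimated counts in any library.

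The epithelium of the gut is renewed from stem cells at the base of crypts, whose daughters become absorptive enterocytes or secretory cells. CDX1 and CDX2 are homeobox factors, and CDX2 is the factor that sets and keeps intestinal identity in the endoderm. HNF4A, a nuclear receptor, and GATA6, a zinc finger factor, act with it on genes of absorptive cells. KLF4 and KLF5 are related zinc finger factors with opposite places in the crypt axis: KLF5 marks dividing crypt cells and KLF4 marks cells that have left the cycle, among them goblet cells. ATOH1, a basic helix-loop-helix factor, commits cells to the secretory lineage and is held down by Notch signalling through HES1. SOX9, an HMG box factor and a known target of Wnt signalling, marks stem and progenitor cells and Paneth cells. ELF3 is an ETS family factor made in epithelia and is needed for the terminal differentiation of the intestinal lining.

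The cells were HCT116, an established line from a human colon carcinoma, and the study followed the loss of NORAD, a long noncoding RNA that binds Pumilio proteins. NORAD was lowered by CRISPRi, where a Cas9 that cannot cut sits on a gene and blocks its transcription, induced by 0.5 µg/ml doxycycline in the medium. Polyadenylated RNA was sequenced in 16 libraries of 6 groups: wild type and knockdown with the time label 24 h (2 libraries each), 48 h (3 each) and 96 h (3 each). The sources used here do not say whether the wild-type cells received doxycycline, whether they carried the interference machinery, or whether a line was 1 clone. Nor do they say that replicates came from separate cultures. Every p-value therefore rests on the variation among these libraries alone, and this may be technical.

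Libraries held 28391784 to 51853876 estimated counts. NORAD itself was measured at 178.8 and 201.2 CPM (counts scaled to library size by the TMM method) in wild type at 24 h, beside 229.7 and 187.7 CPM in the libraries labelled knockdown at that time, so NORAD was not lower there (log2 fold change 0.14). Directions at 24 h are therefore those of the labels. At 48 h NORAD lay between 154.8 and 162.3 CPM in wild type and between 18.1 and 24.8 CPM in knockdown (log2 fold change -2.88). At 96 h it lay between 181.2 and 183.7 CPM in wild type, and knockdown had 66.2 to 79.9 CPM (-1.33). All 8 epithelial markers were present, with 4450 to 8450 CPM summed per library. Summed markers of fibroblasts came to 34.1 to 80.6 CPM, nearly all of it COL1A1, since the other 5 of 6 were under 1 CPM everywhere. Summed markers of blood cells (1.57 to 5.96 CPM), endothelium (0.461 to 3.35), neurons and glia (4.92 to 14.2), liver (1.24 to 9.2) and stomach or squamous epithelium (0.191 to 0.991) were low. Knockdown replicate 3 at 48 h stood apart from its group, at 7.9 on the third principal component against -54.2 and -61.2 for replicates 1 and 2. The members' results at 48 h are given with and without it where it changes a call, and the gene lists' counts where they change.

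The region just before a gene's start is where the polymerase assembles and where many regulators bind. Of the 9 members, 7 had an entry in the RefSeq promoter table (GRCh38.p14), and the 5 windows printed here belong to the 3 members that fell in knockdown and have an entry, and to HNF4A, which has an upstream and a downstream promoter. Each runs from 250 bases before to 50 bases after the RefSeq start, 5′ to 3′ on the strand of the gene. Capitals mark matches, on either strand, to short motifs. The letters searched were TTTATNG for homeobox factors of the CDX class and CAAAGTC for nuclear receptors of the HNF4 class. They were AGATAA for the GATA zinc finger class, GGGCGTG for the zinc finger class of KLF factors, and AACAATG for the SOX class. GGAAGTG stood for the ETS class, ATCAAAG for the effectors of Wnt signalling (TCF/LEF), and TATAAA for the TATA box.
ELF3, chr1:202010337-202010636, plus strand: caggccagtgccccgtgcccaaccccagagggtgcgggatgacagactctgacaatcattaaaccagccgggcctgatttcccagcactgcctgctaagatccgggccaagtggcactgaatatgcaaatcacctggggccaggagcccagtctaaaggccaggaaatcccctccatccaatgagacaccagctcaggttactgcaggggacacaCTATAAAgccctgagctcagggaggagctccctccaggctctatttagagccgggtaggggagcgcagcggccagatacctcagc
CDX2, chr13:27969266-27969565, minus strand: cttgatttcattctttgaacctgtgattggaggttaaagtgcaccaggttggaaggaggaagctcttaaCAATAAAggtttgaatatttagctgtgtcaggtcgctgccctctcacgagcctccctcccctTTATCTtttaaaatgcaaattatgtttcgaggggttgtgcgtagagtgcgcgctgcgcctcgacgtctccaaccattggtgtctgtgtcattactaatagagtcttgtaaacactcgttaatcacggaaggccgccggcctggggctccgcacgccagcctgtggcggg
KLF4, chr9:107489720-107490019, minus strand: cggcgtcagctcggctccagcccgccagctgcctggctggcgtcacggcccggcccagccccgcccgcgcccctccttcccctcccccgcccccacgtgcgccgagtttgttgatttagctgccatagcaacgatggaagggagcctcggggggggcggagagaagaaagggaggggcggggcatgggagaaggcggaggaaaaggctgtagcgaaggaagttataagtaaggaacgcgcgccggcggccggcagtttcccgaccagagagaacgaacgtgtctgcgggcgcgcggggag
HNF4A upstream promoter, chr20:44355449-44355748, plus strand: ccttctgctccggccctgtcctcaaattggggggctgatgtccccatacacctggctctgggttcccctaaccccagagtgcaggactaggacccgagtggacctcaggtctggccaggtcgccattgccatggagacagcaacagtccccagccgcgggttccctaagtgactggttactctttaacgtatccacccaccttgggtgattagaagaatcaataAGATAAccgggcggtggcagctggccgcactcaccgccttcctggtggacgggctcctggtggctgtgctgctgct
HNF4A downstream promoter, chr20:44400989-44401288, plus strand: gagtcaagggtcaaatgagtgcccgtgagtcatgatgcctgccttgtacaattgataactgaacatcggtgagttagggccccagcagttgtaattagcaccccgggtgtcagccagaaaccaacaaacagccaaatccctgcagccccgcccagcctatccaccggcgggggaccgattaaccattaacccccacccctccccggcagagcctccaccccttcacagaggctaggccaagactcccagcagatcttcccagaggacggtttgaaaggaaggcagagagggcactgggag

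The ELF3 window held TATAAA at position -34, within a match to the CDX letters on the other strand that began at -35, so the 2 matches share 6 bases. The CDX2 window held a CDX match at -181 and a GATA match at -119, and the upstream HNF4A window held a GATA match at -26. No listed letters were found in the KLF4 window or in the downstream HNF4A window, which says only that these letters are not in those 300 bases. Among the windows not printed, the upstream KLF5 window held a CDX match at -195 that overlaps TATAAA at -194, and the ATOH1 window held a TCF/LEF match at -148. Of 35116 windows of this length in the table, 9.73% held the CDX letters, 3.37% HNF4, 10.3% GATA, 8.68% KLF, 3.33% SOX, 11.2% ETS, 2.62% TCF/LEF and 11.5% TATAAA, and a match is a description of letters, not a binding site. The KLF4 window was 69.0% G and C with 33 CpG steps, against medians of 58.7% and 14 over all windows, and the ELF3 window was 59.0% with 7. The RefSeq start of ELF3 was the start of ELF3-202, which carried 60.0% of the counts of ELF3. That of CDX2 lay 1824 bases inside the start of CDX2-201, the transcript with 89.2% of the counts, so the CDX2 window is not the region before the start of that transcript.

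At 48 h, when NORAD was lowest, 4 of the 7 tested members fell in knockdown and none rose: SOX9, ELF3, CDX2 and KLF4. ELF3 also fell at 24 h and at 96 h, where no other member passed. HNF4A, GATA6 and KLF5 passed at no time. Against the background of all 19836 genes tested, where 18.5% were called lower and 14.8% higher at 48 h, 4 of 7 members were lower. At 24 h 1 of 7 was lower, against 12.4% lower and 5.14% higher among all genes, and at 96 h 1 of 7, against 5.15% lower and 5.35% higher. The 7 tested members averaged 10.3 to 97.9 CPM, whereas only 11053 of the 19836 genes averaged at least 5 CPM. Shares among genes of like level were not computed, here or for the comparisons below. A gene was called where the adjusted p of edgeR's quasi-likelihood test was under 0.05 after Benjamini-Hochberg adjustment over all genes tested. The median log2 fold change of the 7 was -0.26, -0.50 and -0.09 at the 3 times, beside -0.02, 0.06 and -0.01 for all genes. In RNA from whole cultures, fewer cells that make a gene and less of its RNA per cell cannot be told apart.

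The scaling of the libraries moved these all-gene figures. Of the genes called at 24 h 29.2% were higher, and the share was 75.4% with total-count, 53.7% with upper-quartile and 49.3% with abundance-dependent scaling. At 48 h it was 44.4%, against 68.9%, 64.3% and 50.4%. Total-count and upper-quartile scaling moved the median log2 fold change of all genes from -0.02 to 0.187 and 0.095 at 24 h and from 0.063 to 0.203 and 0.182 at 48 h. Relative to the median of all genes, ELF3 lay at -0.72 at 24 h under TMM, total-count and upper-quartile scaling. At 48 h and on the same relative scale, SOX9 lay at -1.05 to -1.06, ELF3 at -0.98, CDX2 at -0.57 to -0.58 and KLF4 at -0.56 to -0.57 under these 3 scalings. Each of the 3 applies 1 factor per library, so relative values had to be nearly the same under them and are no check on scaling. Under abundance-dependent scaling the relative values were -0.89, -0.79, -0.47 and -0.42, and all 4 genes remained called under each scaling.

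**Figure D1:**
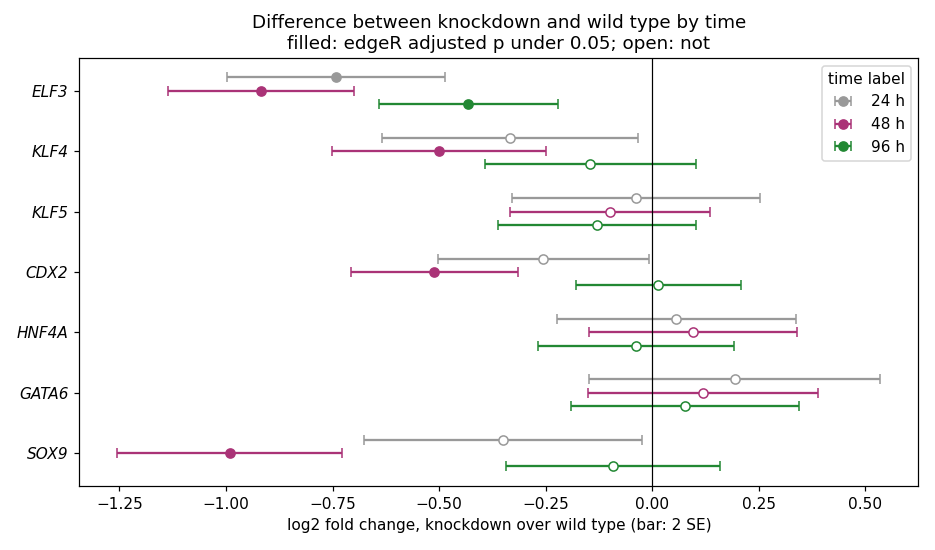
Log2 fold change of knockdown over wild type (x axis, bars 2 standard errors) for the 7 tested members at 24 h, 48 h and 96 h; filled points passed the adjusted p threshold of 0.05. At 48 h SOX9 (-0.99), ELF3 (-0.92), CDX2 (-0.51) and KLF4 (-0.50) are filled, and ELF3 is filled at all 3 times.

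ELF3 (ENSG00000163435, chr1:202007945-202017188, plus strand) was the member with the highest level per length in all 6 groups, and it was lower in every knockdown library than in every wild-type library of its time. At 24 h it was measured at 274.4 and 216.1 CPM in wild type and at 171.3 and 122.1 CPM in the libraries labelled knockdown. The groups did not overlap, but the 2 libraries of each group differed by far more than at later times. The log2 fold change was -0.74 (SE 0.128, adjusted p = 4.92e-04), or 59.8% of wild type. With the libraries of 24 h fitted alone the value was -0.69 and did not pass (adjusted p = 0.24).

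At 48 h ELF3 had 52.4, 51.7 and 50.8 CPM in wild type and 26.5, 27.96 and 27.6 CPM in knockdown. Both groups were tight and well apart, including knockdown replicate 3. This gave a log2 fold change of -0.92 (SE 0.109, adjusted p = 3.52e-06), or 52.9% of wild type. At 96 h the values were 114.9, 100.1 and 98.5 CPM in wild type and 72.7, 79.8 and 80.0 CPM in knockdown, again without overlap. The log2 fold change was then -0.43 (SE 0.105, adjusted p = 0.00973), or 74.1% of wild type. That call was lost without wild-type replicate 1 (-0.36, adjusted p = 0.0579) or without knockdown replicate 1 (-0.39, adjusted p = 0.0502) of 96 h.

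KLF4 (ENSG00000136826, chr9:107484852-107490482, minus strand), the factor of differentiated cells, fell at 48 h. Its levels were 35.0, 39.2 and 36.1 CPM in wild type and 24.1, 21.9 and 32.2 CPM in knockdown. No knockdown library reached the lowest wild-type library, although replicate 3 came near it. This was a log2 fold change of -0.50 (SE 0.126, adjusted p = 0.00555), and without that replicate it was -0.68. At 24 h KLF4 had 79.1 and 86.5 CPM in wild type and 75.7 and 55.8 CPM in the libraries labelled knockdown (log2 fold change -0.33, SE 0.150, adjusted p = 0.153). At 96 h it had 45.7, 39.8 and 39.4 CPM against 37.3, 38.6 and 37.1 CPM (log2 fold change -0.15, SE 0.124, adjusted p = 0.585). In both of these comparisons the groups did not overlap, yet the test was not passed. The 24 h value passed without knockdown replicate 1 of 24 h (-0.57, adjusted p = 0.0342) and without knockdown replicate 3 of 48 h (-0.33, adjusted p = 0.0315).

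KLF5 (ENSG00000102554, chr13:73054976-73077542, plus strand), the related factor of dividing crypt cells, passed in no knockdown comparison. At 24 h it had 28.5 and 34.8 CPM in wild type and 33.0 and 28.6 CPM in the libraries labelled knockdown. At 48 h it had 36.5, 39.4 and 34.8 CPM against 31.1, 29.1 and 43.3 CPM, and the last of these, knockdown replicate 3, was the highest KLF5 value of all 16 libraries while the other 2 lay below every wild-type library. The log2 fold change was -0.10 (interval of 2 SE -0.33 to 0.13, adjusted p = 0.54) with that replicate, 0.04 with total-count scaling, and -0.29 (adjusted p = 0.00962) without it. At 96 h the groups did not overlap, with 36.9, 34.0 and 36.5 CPM in wild type and 33.4, 31.7 and 33.1 CPM in knockdown, but the log2 fold change of -0.13 did not pass (interval -0.36 to 0.10, adjusted p = 0.607).

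CDX2 (ENSG00000165556, chr13:27962137-27971139, minus strand), the homeobox factor of intestinal identity, fell at 48 h. It had 29.9, 29.9 and 26.6 CPM in wild type and 17.8, 19.2 and 23.7 CPM in knockdown. The groups did not overlap, and knockdown replicate 3 was again the highest of its group. The log2 fold change was -0.51 (SE 0.098, adjusted p = 4.19e-04), or 70.1% of wild type, and -0.64 without that replicate. At 24 h it had 18.2 and 18.8 CPM against 15.1 and 15.98 CPM, which did not pass (log2 fold change -0.26, interval -0.50 to -0.01, adjusted p = 0.188). At 96 h the groups overlapped, with 25.9, 21.5 and 23.4 CPM in wild type and 23.6, 24.7 and 23.2 CPM in knockdown (log2 fold change 0.01, interval -0.18 to 0.21).

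CDX1 (ENSG00000113722, chr5:150166795-150184558, plus strand), the paralog of CDX2, was at the limit of detection. Its counts summed to 1, 1 and 1 over the wild-type groups of 24, 48 and 96 h and to 3, 1 and 0 over the knockdown groups, and 11 of the 16 libraries were at 0. At these depths 3 counts in the shallowest library of a group are worth 0.0695 to 0.106 CPM, a bound on counting error only. ATOH1 (ENSG00000172238, chr4:93828753-93830964, plus strand), the factor of the secretory lineage, summed to 4, 4 and 5 counts over the wild-type groups and to 10, 1 and 6 over the knockdown groups. Of the 10 counts at 24 h, 9 came from 1 library, and 5 of the 16 libraries were at 0. For both genes a difference between the groups was not detectable at this depth.

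HNF4A (ENSG00000101076, chr20:44355700-44434596, plus strand), the nuclear receptor, had 15.7 and 16.5 CPM in wild type and 17.8 and 15.8 CPM in the libraries labelled knockdown at 24 h. At 48 h it had 5.86, 6.33 and 6.68 CPM against 6.19, 5.72 and 8.31 CPM, and at 96 h 12.1, 10.8 and 11.3 CPM against 11.4, 11.2 and 10.6 CPM. The groups overlapped at all 3 times. Log2 fold changes were 0.06, 0.09 and -0.04, with intervals of 2 SE of -0.22 to 0.34, -0.15 to 0.34 and -0.27 to 0.19, and no alternative among the 24 tried gave a call.

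GATA6 (ENSG00000141448, chr18:22169443-22202528, plus strand), which acts with HNF4A, had the lowest level per length of the 7 tested members in wild type at 24 h. It had 7.72 and 8.997 CPM in wild type and 8.90 and 10.2 CPM in the libraries labelled knockdown at that time. At 48 h the values were 10.4, 11.1 and 9.90 CPM against 10.3, 9.17 and 14.8 CPM, the last again knockdown replicate 3 and the highest of all 16 libraries. At 96 h they were 9.97, 10.4 and 10.4 CPM against 11.4, 11.0 and 9.98 CPM. The groups overlapped each time, and the log2 fold changes of 0.19, 0.12 and 0.08 (SE 0.171, 0.135 and 0.134) did not pass. Without knockdown replicate 3 the value at 48 h was -0.11 and did not pass either.

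SOX9 (ENSG00000125398, chr17:72121020-72126420, plus strand), the factor of stem, progenitor and Paneth cells, fell at 48 h. It had 54.5, 57.3 and 54.1 CPM in wild type and 27.2, 21.0 and 35.5 CPM in knockdown. The groups were far apart, although the knockdown libraries differed among themselves more than the wild-type ones. The log2 fold change was -0.99 (SE 0.132, adjusted p = 3.25e-05), or 50.3% of wild type, and -1.20 without knockdown replicate 3 and -0.82 without replicate 2. At 24 h it had 38.1 and 41.4 CPM against 33.8 and 28.7 CPM (log2 fold change -0.35, SE 0.163, adjusted p = 0.173). That value passed with the libraries of 24 h fitted alone (-0.30, adjusted p = 0.0199), without knockdown replicate 2 of 48 h (adjusted p = 0.0281) and without knockdown replicate 3 of 48 h (adjusted p = 0.0194). At 96 h the groups overlapped, with 121.5, 104.1 and 120.8 CPM in wild type and 110.8, 108.4 and 105.7 CPM in knockdown (log2 fold change -0.09, interval -0.34 to 0.16).

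**Figure D2:**
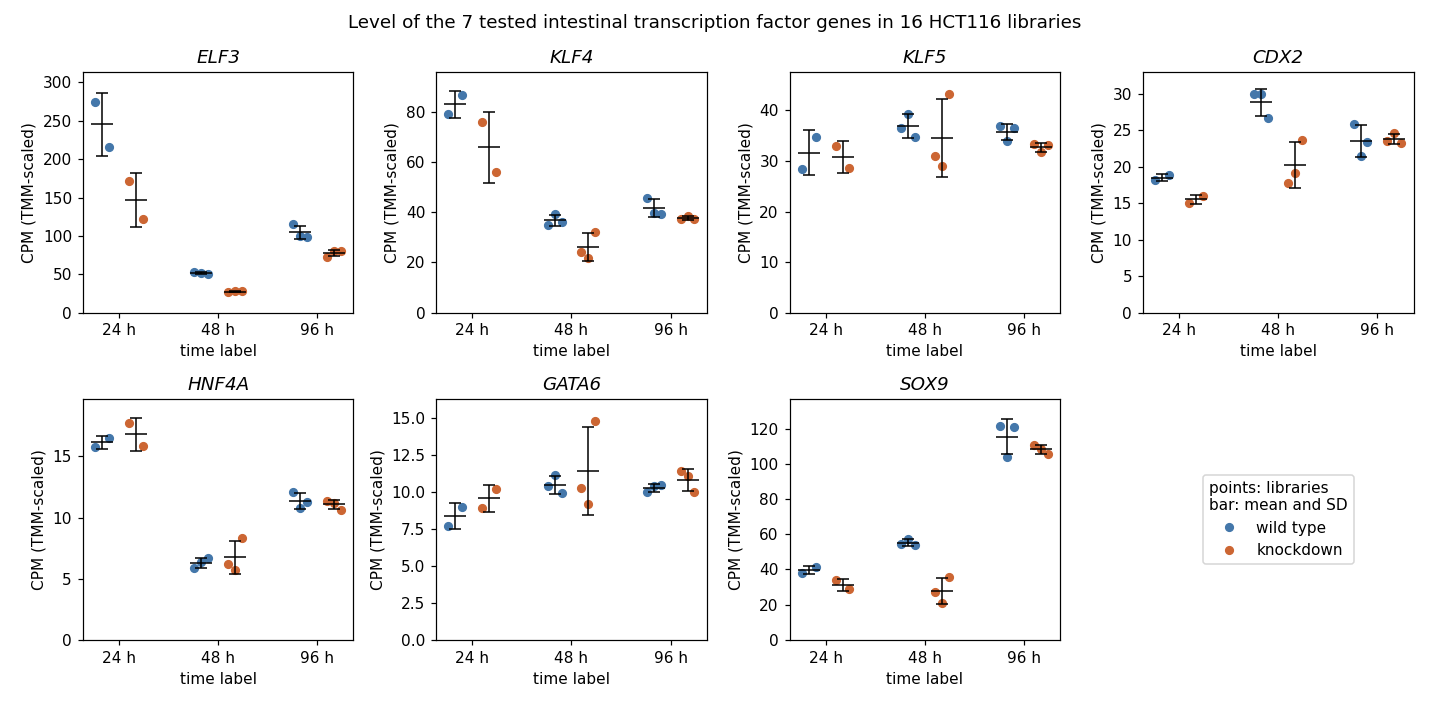
CPM (TMM-scaled, y axis from 0) of the 7 tested members in each of the 16 libraries, wild type and knockdown side by side at 24 h, 48 h and 96 h; bars give the mean and SD. At 48 h the SOX9 wild-type libraries sit between 54.1 and 57.3 CPM and the knockdown libraries between 21.0 and 35.5 CPM, while the HNF4A groups overlap at every time.

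Whether the knockdown difference itself changed with time was tested within the same edgeR fit. SOX9 (adjusted p = 0.0126) and CDX2 (adjusted p = 0.0452) differed among the 3 times, 2 of 7 members against 9.44% of all genes. Between 48 h and 96 h the difference moved toward higher values for SOX9 by 0.90 on the log2 scale (SE 0.182, adjusted p = 0.00507), for CDX2 by 0.53 (SE 0.138, adjusted p = 0.0176) and for ELF3 by 0.49 (SE 0.150, adjusted p = 0.0432). That made 3 of 7 members, against 6.74% of all genes in that direction. SOX9 and CDX2 had fallen at 48 h and did not pass at 96 h, whereas ELF3 was lower at both times and closer to wild type at 96 h. Between 24 h and 48 h no member passed, against 1.77% of all genes in either direction, and SOX9 had the lowest p (-0.64, SE 0.209, unadjusted p = 0.00738, adjusted p = 0.156), the 1 member with an unadjusted p under 0.05.

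Of these, the SOX9 results held in all 24 alternatives for the step from 48 h to 96 h and in all 23 for any difference. The CDX2 result for any difference held in 5 of 23 alternatives, and its step from 48 h to 96 h in 17 of 24. ELF3 passed for any difference in 3 of 23, among them DESeq2 (adjusted p = 0.0475). The ELF3 step held in 10 of 24 and was lost under each other scaling. The SOX9 step from 24 h to 48 h passed without knockdown replicate 3 of 48 h (-0.85, adjusted p = 0.00103) and with DESeq2 (-0.69, adjusted p = 0.0328), the 1 member DESeq2 called. KLF4 also passed for the step from 48 h to 96 h without that replicate (0.53, adjusted p = 0.00808). The comparisons share the libraries of 48 h and are not independent of each other.

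**Figure D3:**
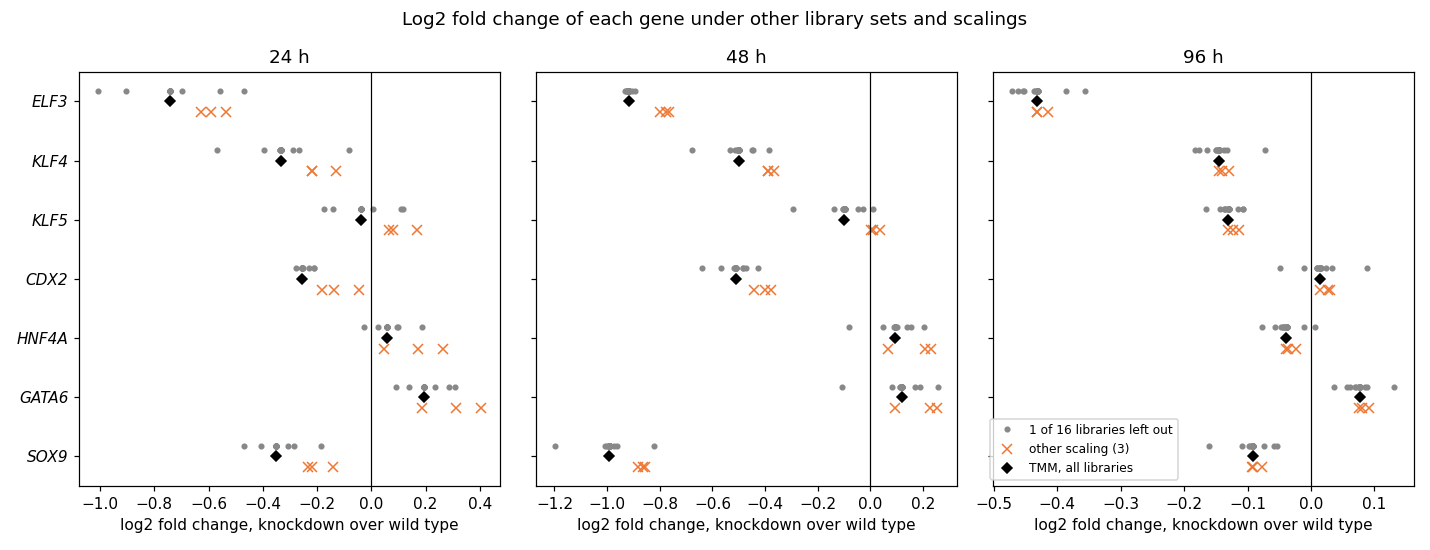
Log2 fold change of knockdown over wild type (x axis) for each tested member at 24 h, 48 h and 96 h with all libraries (diamonds), with 1 of the 16 libraries left out (grey points) and under 3 other scalings (crosses). At 48 h SOX9 ranges from -1.20 to -0.82 and CDX2 from -0.64 to -0.43 over the libraries left out, all below 0.

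Levels of members also differed between time labels in wild type. From 24 h to 48 h ELF3 fell by 2.25 on the log2 scale (SE 0.117, adjusted p = 9.43e-12) to 21.1% of its level, HNF4A by 1.36 (SE 0.131, adjusted p = 3.96e-08) and KLF4 by 1.17 (SE 0.137, adjusted p = 1.74e-06). CDX2 rose by 0.64 (SE 0.113, adjusted p = 9.62e-05) and SOX9 by 0.48 (SE 0.149, adjusted p = 0.0154). That made 3 of 7 lower against 22.1% of all genes, and 2 of 7 higher against 22.5%. The SOX9 rise was lost when wild-type replicate 1 of 24 h was left out (0.42, adjusted p = 0.121). GATA6 and KLF5 did not pass, with log2 changes of 0.32 and 0.22, though both passed without knockdown replicate 3 of 48 h (adjusted p = 0.0218 and 0.0445), a library that is not in the contrast but enters the shared estimate of spread.

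From 48 h to 96 h in wild type SOX9 rose by 1.06 (SE 0.129, adjusted p = 3.48e-06), ELF3 by 1.02 (SE 0.106, adjusted p = 1.55e-07) and HNF4A by 0.85 (SE 0.119, adjusted p = 4.18e-06). CDX2 fell by 0.29 (SE 0.0971, adjusted p = 0.0181). This was 3 of 7 higher against 23.7% of all genes and 1 of 7 lower against 22.7%. KLF4, GATA6 and KLF5 did not pass, with 0.18, -0.03 and -0.04. The CDX2 fall was lost under total-count (-0.21, adjusted p = 0.062) and upper-quartile scaling (-0.20, adjusted p = 0.0604) and without either of wild-type replicates 1 and 2 of 48 h or replicates 2 and 3 of 96 h (adjusted p = 0.0507 to 0.116). KLF4 passed under upper-quartile (0.27, adjusted p = 0.0424) and abundance-dependent scaling (0.28, adjusted p = 0.0378). These comparisons use the wild-type libraries that also serve as controls above, and time label, culture and library preparation cannot be told apart in them.

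Divided by transcript length, so that genes can be compared, ELF3 led at every time, at 159 ± 28.9 CPM per kilobase in wild type at 24 h (SD, n = 2), 26.2 ± 1.00 at 48 h and 61.1 ± 4.99 at 96 h (SD, n = 3 each). At 24 h KLF4 came next at 32.4 ± 1.63, then SOX9 (10.1 ± 0.600) and KLF5 (10.0 ± 0.556), whose libraries overlapped, and CDX2 (7.97 ± 0.117), HNF4A (4.33 ± 0.569) and GATA6 (2.40 ± 0.364), which did not overlap their neighbours. At 48 h SOX9 (14.1 ± 0.446) and KLF4 (13.7 ± 0.861) overlapped, as did CDX2 (11.4 ± 1.08) and KLF5 (11.4 ± 1.26), and GATA6 (2.79 ± 0.191) stood above HNF4A (1.32 ± 0.157). By 96 h SOX9 (29.3 ± 2.50) had passed KLF4 (15.3 ± 1.32), and HNF4A (2.94 ± 0.125) and GATA6 (2.79 ± 0.0977) overlapped. In knockdown at 48 h ELF3 (14.7 ± 0.994), KLF5 (11.0 ± 3.10), KLF4 (9.73 ± 1.92), CDX2 (8.16 ± 2.41) and SOX9 (7.09 ± 1.84) each overlapped their neighbours in this run of 5, while SOX9 did not overlap GATA6 (3.03 ± 0.794), the next gene below it. SOX9 was at rank 2 of 9 in wild type and at rank 5 in knockdown at that time, an order given with no test.

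**Figure D4:**
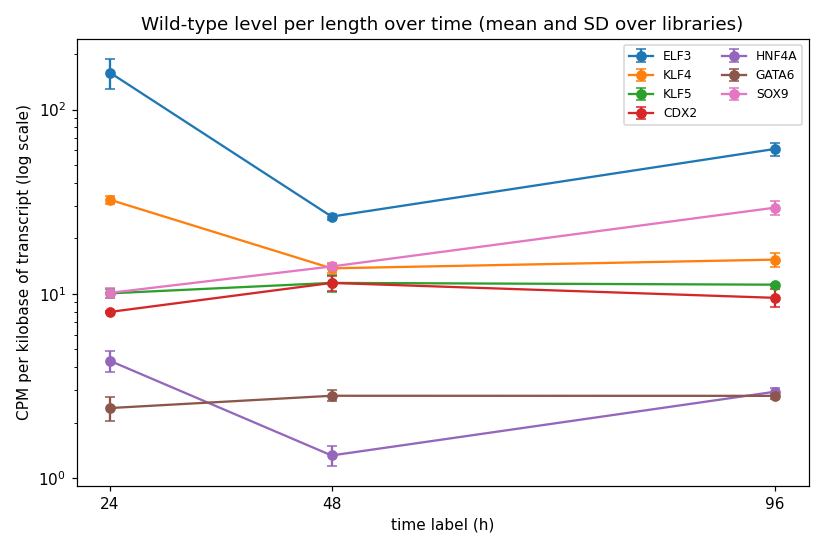
Level per length (CPM per kilobase of transcript, log scale on the y axis) of the 7 tested members in wild type against the time label in hours on the x axis; points are means and bars SD over 2 or 3 libraries. ELF3 drops from 159 to 26.2 and returns to 61.1, SOX9 climbs from 10.1 to 29.3, and GATA6 and KLF5 stay nearly level.

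The study also asked about splicing, so the share of each gene's counts in its transcripts was tested. Of the 6 members with at least 2 transcripts kept, none was called at 24 h, 48 h or 96 h by edgeR's transcript usage test, against 1.56%, 4.07% and 1.53% of the 12784 genes tested. No member reached an unadjusted p under 0.05, the lowest being 0.156 for HNF4A at 96 h. ELF3-202, the leading ELF3 transcript, held 55.4% to 64.4% of the counts of ELF3 across the 6 groups. The 3179-base transcript that starts further upstream, at position 202010517, held 11.2 ± 0.0646% in wild type at 24 h (SD, n = 2), 29.9 ± 3.20% at 48 h and 21.5 ± 2.97% at 96 h (SD, n = 3 each). In knockdown it held 10.1 ± 0.628%, 26.7 ± 0.758% and 16.5 ± 0.508%. Its share was thus larger at 48 h, when the gene was at its lowest, in both genotypes, and that pattern over time was not tested.

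HNF4A is known to be made from both of the promoters printed above, and their products differ at the N terminus. Transcripts from the upstream start held 17.9% and 20.8% of HNF4A counts in wild type at 24 h. By 48 h they held 7.77%, 14.5% and 6.61%, and by 96 h 17.3%, 17.2% and 18.5%. In the knockdown groups the shares were 17.1% and 14.5%, then 6.61%, 7.26% and 12.9%, then 18.8%, 19.0% and 16%. Within each genotype every library of 48 h lay below every library of 24 h and 96 h. Wild type and knockdown overlapped at 48 h and 96 h, and at 24 h both libraries labelled knockdown lay below the wild-type ones. The counts behind the shares at 48 h were 15 to 38 per library, and the difference over time was not tested. HNF4A-202, the main upstream transcript, is annotated at 1470 bases and HNF4A-201, the main downstream one, at 6445, so shares of counts are not shares of molecules. For KLF5 the upstream start held between 16.5 ± 4.25% and 22 ± 8.49% of the counts as group means (SD, n = 3 each), within the spread between libraries.

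Genes on the opposite strand overlap 4 of the members. ELF3-AS1, which covers part of the ELF3 window printed above, was measured at 0.709 to 1.81 CPM per library, against 26.5 to 274.4 CPM for ELF3. SOX9-AS1 lay between 0 and 0.951 CPM, and GATA6-AS1 between 0.0552 and 1.00 CPM. None of the 3 passed in a knockdown comparison, and GATA6-AS1 at 48 h came nearest (log2 fold change 1.43, SE 0.578, adjusted p = 0.0614). SOX9-AS1 had 0.301 and 0.951 CPM in wild type at 24 h, from 8 and 26 counts. At 48 h it had at most 0.0827 CPM, from 3 counts (log2 change -3.95, SE 0.926, adjusted p = 0.00144 in edgeR). Only 1 of the 19 annotated SOX9-AS1 transcripts was in the deposited table, and 4 of the 9 of GATA6-AS1. These values are therefore not levels of the whole genes, and any relation to the SOX9 rise was not tested. HNF4A-AS1 did not pass the filter and lay at or under 0.207 CPM, and AL117382.2 was at 0 counts in all 16 libraries. AC091588.1 and AC091588.3, which overlap GATA6, also did not pass. The libraries keep strand per the labels, but whether the counting used it is not given in the sources used here.

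Other regulators of the intestinal epithelium were examined beside the members. For this list and each gene list below, the background is the share of all 19836 genes called with TMM scaling. Over the 3 times in order, genes called lower made up 12.4%, 18.5% and 5.15%, and genes called higher 5.14%, 14.8% and 5.35%. Counts of list genes set beside these shares are descriptions, not tests of a list. The lists share genes, among them GFI1, HES1 and DLL1, and a shared gene is counted in each of its lists. Of 26 tested factors on a list of other intestinal transcription factors, 4 fell and 0 rose at 24 h, 7 fell and 1 rose at 48 h, and 2 fell and 0 rose at 96 h, with median log2 fold changes of -0.08, -0.06 and -0.10. EHF, the ETS factor closest to ELF3, fell at 24 h from 6.12 ± 0.294 to 2.93 ± 0.557 CPM (SD, n = 2 each, log2 fold change -1.06, adjusted p = 0.00536) and at 48 h from 0.481 ± 0.0459 to 0.148 ± 0.0408 CPM (SD, n = 3 each, log2 fold change -1.67, adjusted p = 5.11e-04). ETS2, another ETS factor, fell at 48 h (-0.71, adjusted p = 5.40e-05), and KLF6 (-0.45, adjusted p = 6.49e-04) and PRDM1 (-0.87, adjusted p = 0.00127) fell at 24 h. FOXA3 (-0.32, adjusted p = 0.0306) fell and GFI1 (0.47, adjusted p = 0.0206, lost under abundance-dependent scaling), a factor of secretory precursors, rose at 48 h, and ONECUT2 (-0.40, adjusted p = 0.0278) and NR5A2 (-0.54, adjusted p = 0.0397) fell at 96 h. The split of the list at 48 h changed with scaling, to 2 lower and 6 higher with total-count and 3 lower and 4 higher with upper-quartile scaling, where FOXA3 did not pass. Without knockdown replicate 3 of 48 h it was 7 lower and 2 higher.

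Genes of intestinal stem cells, a class in which SOX9 is active, mostly fell at 48 h: 9 of 14 tested fell and 2 rose, with a median of -0.45 beside 0.06 for all genes. At 24 h 5 fell and 1 rose, and at 96 h 4 fell and 0 rose. EPHB2, a receptor that positions cells along the crypt, fell at 24 h from 37.6 ± 1.48 to 2.65 ± 0.121 CPM (SD, n = 2 each), at 48 h from 20.7 ± 0.941 to 6.06 ± 0.985 CPM and at 96 h from 38.3 ± 3.54 to 20.2 ± 1.46 CPM (SD, n = 3 each), with log2 fold changes of -3.83, -1.78 and -0.92. NORAD was not lower at 24 h in the libraries labelled knockdown (log2 fold change 0.14), so values at 24 h compare labels. CDCA7 fell at all 3 times (-0.79, -1.28 and -0.64), CD44 (-0.91) at 48 h, and RNF43, a brake on Wnt receptors, at 48 h (-0.80) and 96 h (-0.24, lost under total-count scaling). TERT fell at 24 h (-0.96) and 96 h (-0.92). AXIN2, also a Wnt target, rose at 24 h (0.90, adjusted p = 5.98e-05). Under the other scalings 7, 7 and 8 of the 14 fell at 48 h, and without knockdown replicate 3 it was 10, with 1 that rose. The 24 h split was 3 lower and 4 higher with total-count scaling.

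Genes of differentiated cells were examined in the same way. Of 22 tested enterocyte genes, 2 rose and 1 fell at 24 h, beside 5.14% and 12.4% of all genes. At 48 h 1 rose and 2 fell, beside 14.8% and 18.5%, and at 96 h 1 rose and 1 fell, beside 5.35% and 5.15%. USH1C, a brush border scaffold, rose at all 3 times (0.59, 0.86 and 0.35), and CA2, a carbonic anhydrase, fell at all 3 (-0.66, -0.53 and -0.53). KRT20, the keratin of mature intestinal cells, fell at 48 h from 6.90 ± 0.917 to 2.08 ± 0.470 CPM (SD, n = 3 each, log2 fold change -1.73, adjusted p = 4.47e-08), and CEACAM1 rose at 24 h (1.18, adjusted p = 0.0396), a call lost under abundance-dependent scaling. The list's median was 0.25, 0.46 and 0.04, beside -0.02, 0.06 and -0.01 for all genes. With abundance-dependent scaling the medians at 24 h and 48 h were 0.11 and 0.05. The number of enterocyte genes that rose at 24 h was 1 with that scaling and 5 with total-count scaling, and without knockdown replicate 3 of 48 h 3 rose at 48 h.

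Of 7 tested goblet and secretory genes, 1 rose and 1 fell at 24 h, 2 rose and 1 fell at 48 h and 0 changed at 96 h. DLL1, a Notch ligand, rose at 24 h (0.65, adjusted p = 0.00256) and 48 h (0.35, adjusted p = 0.0231), but the value at 48 h did not pass without knockdown replicate 3 or under abundance-dependent scaling. HES6 fell at 24 h (-0.32, adjusted p = 0.0248) and 48 h (-0.49, adjusted p = 7.07e-05), and the value at 24 h did not pass under any of the 3 other scalings. At 48 h the number that rose was 0 with abundance-dependent, 3 with upper-quartile and 4 with total-count scaling, and 1 without knockdown replicate 3. Of 5 tested enteroendocrine and Paneth genes, PYY, a gut hormone, rose (1.25) and MMP7 fell (-0.90) at 48 h, both between 0.497 and 1.27 CPM as group means, and 0 changed at 24 h or 96 h. Of these 5, 2 rose at 48 h without knockdown replicate 3, and likewise with upper-quartile or total-count scaling.

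In the Notch pathway, which holds ATOH1 down through HES1, 3 of 23 tested genes rose and 3 fell at 24 h, 3 rose and 5 fell at 48 h, and 2 rose and 0 fell at 96 h. The background shares of all genes were 5.14%, 14.8% and 5.35% higher, with 12.4%, 18.5% and 5.15% lower, in the same order of times. HES1 fell at 24 h (-0.46, adjusted p = 0.04) and did not pass under the 3 other scalings. NRARP (-0.84), a feedback target of the pathway, the ligand JAG2 (-0.44) and the glycosyltransferase LFNG (-0.72) fell at 48 h, and MFNG (0.70), a related enzyme, rose. HES4 (0.44) and PSEN2 (0.35), a subunit of gamma-secretase, rose at 96 h. With total-count scaling the counts were 8 higher and 0 lower at 24 h and 7 higher and 4 lower at 48 h, and without knockdown replicate 3 of 48 h 10 fell and 2 rose at 48 h.

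Beside the falls at 48 h, 4 of 8 epithelial markers fell and 1 rose, and their summed level was 6990 to 7340 CPM in wild type and 4450 to 5380 CPM in knockdown. KRT19 (-0.72), KRT8 (-0.64), EPCAM (-0.49) and KRT18 (-0.44) were lower. At 96 h 4 of the 8 rose and 0 fell, namely CLDN3 (0.89), CLDN7 (0.58), CLDN4 (0.57) and KRT19 (0.29), and the sums were 5020 to 5540 and 6090 to 6440 CPM. At 24 h KRT8 (-0.31) and KRT18 (-0.30) were called lower with TMM, did not pass under the 3 other scalings, and had the opposite sign under at least 1 of them (up to 0.13 and 0.07). The list's split at 24 h, 1 higher and 2 lower with TMM, was 4 higher and 0 lower with abundance-dependent scaling, 2 and 0 with total-count and 1 and 0 with upper-quartile scaling. COL1A1 was higher at 48 h, at 33.9 ± 0.462 CPM in wild type and 71.0 ± 9.12 CPM in knockdown (SD, n = 3 each, log2 fold change 1.07), while the other 5 fibroblast markers were under 1 CPM in all 16 libraries. CSF1R, the 1 blood marker of 6 above 1 CPM, rose at 48 h (1.41), the neural marker MAP2 at 24 h (0.59) and 48 h (1.06), and the liver marker SERPINA1 at all 3 times (1.17, 1.03 and 1.01), while ALB, TTR and APOH were under 1 CPM in all libraries. No endothelial, gastric or squamous marker passed in edgeR with TMM scaling at any time, and 1 of the 2 tested gastric and squamous markers fell at 48 h under abundance-dependent scaling. Without knockdown replicate 3, 5 epithelial markers fell at 48 h, 2 of 4 tested fibroblast markers rose and 1 fell, and 2 of 4 neural markers rose. The part of these genes in the members' falls was not tested.

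To place the members that fell among all genes, each was compared with 11053 genes of at least 5 CPM on average by the mean absolute difference in log2 CPM over the 16 libraries, after subtraction of each gene's own mean. CDX2 had the closest neighbours, MED9 (0.060), AIF1L (0.062) and ZBTB9 (0.065). KLF4 was closest to AMPD3 (0.107), CYP51A1 (0.109) and RHOB (0.110), and SOX9 to TSC22D1 (0.133), SLC39A10 (0.188) and CNTNAP3 (0.219). ELF3 was closest to STK39 (0.170), FASN (0.187) and HYAL1 (0.268). The distances are larger for SOX9 and ELF3, the members whose levels range most, over 5.77-fold and 12.8-fold per length between the lowest and the highest library, than for CDX2, which ranges over 2.02-fold. They describe libraries that share their depth and time label, and say nothing of shared function.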

How the data were processed

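The labels describe strand-specific sequencing of polyadenylated RNA from HCT116 cells. The deposited table holds estimated counts per transcript and library, which the authors made with kallisto; DESeq2 and the build hg19 are also named in the submitters' processing notes. For its index and options no value is given in the sources used here. The transcript names match GENCODE 29 (GRCh38), from which gene coordinates were taken. Of 166096 transcripts, 156584 matched. The other 9512, with 2.746% to 3.398% of the counts of a library, were left out. The matched transcripts gave 31496 genes, whose sums were rounded to whole counts. Over all 166096 transcripts, unmatched ones included, libraries held 28391784 to 51853876 counts.

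Genes were filtered with filterByExpr, scaled by TMM and tested with edgeR 4.0.16 (quasi-likelihood, robust prior, R 4.3.3, limma 3.58.1) on the means of 6 groups over 16 libraries, with 10 residual degrees of freedom and Benjamini-Hochberg adjustment over all 19836 genes tested (threshold 0.05). For transcript usage edgeR's diffSpliceDGE was used. On simulated data the gene tests were checked: changes in genes at the level of the members were recovered far more often than changes in genes under 5 CPM, few of which were called. The usage test made more false calls than its threshold. Alternatives were DESeq2 1.42.0, scaling by upper quartile, by total count or along abundance (loess span 0.4), no filter, no robust prior, a replicate block, only the libraries compared, and each library left out. CPM values are TMM-scaled, and likeness used log2 CPM with a prior count of 2. Differences between replicates exceeded sampling noise in every pair, so none were merged. The labels name no batch. Intervals are 2 standard errors of the edgeR fit, which hold the spread between libraries, while floors cover counting error only.

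Named beside the members were NORAD, antisense genes that overlap a member, the 3 genes most like each member that passed, and from each list up to 4 genes of lowest p per time among those that passed with no overlap between groups. The members and lists were chosen with earlier results of these data known.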

Additional observations from a re-analysis of the deposited data

Results flagged for a closer look

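Several results were singled out because the knockdown difference itself differed between time labels in edgeR's quasi-likelihood test, adjusted over all genes tested. Over the 3 times together this was so for SOX9 (adjusted p = 0.0126) and CDX2 (adjusted p = 0.0452). From 48 h to 96 h it was so for SOX9 (0.90 on the log2 scale, adjusted p = 0.00507), CDX2 (0.53, adjusted p = 0.0176) and ELF3 (0.49, adjusted p = 0.0432). In all 3 genes the value at 48 h was the lowest of the 3 times. The step from 24 h to 48 h passed in none of them in the same test (adjusted p = 0.156 for SOX9, 0.521 for CDX2 and 0.706 for ELF3). Only the SOX9 results held in every alternative. The CDX2 results held in 5 of 23 for any difference and in 17 of 24 for the step from 48 h to 96 h. The ELF3 step held in 10 of 24.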

How the results depend on the processing

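The 4 members called at 48 h were called in all 24 alternatives, and KLF5 was added without knockdown replicate 3 of 48 h (4 to 5 over the libraries left out). A left-out library that is not in a contrast bears on it only through the filter, the scaling and the shared estimate of spread. Such alternatives are a weak check of a call. At 24 h the count of 1 member became 1 to 3 with a library left out, 2 without knockdown replicate 1 of 24 h or knockdown replicate 2 of 48 h and 3 without knockdown replicate 3 of 48 h. With only the 24 h libraries SOX9 was called (-0.30, adjusted p = 0.0199) and ELF3 was not (-0.69, adjusted p = 0.24). At 96 h the count of 1 became 0 to 1. Members whose difference varied among the times numbered 2, and 1 under each of the 3 other scalings (total-count, upper-quartile, abundance-dependent), with the replicate block and without the robust prior, 3 with DESeq2, where ELF3 was added, and 1 to 3 with a library left out. From 24 h to 48 h the count of 0 became 1 with DESeq2 and 0 to 1 with a library left out. From 48 h to 96 h the count of 3 became 1 under total-count scaling and 1 to 3 with a library left out. Where no cause is given, the cause was not tested. For the members, no difference past the threshold with TMM changed sign in an alternative. Among the list genes, KRT8 and KRT18 were called lower at 24 h with TMM and had the opposite sign under at least 1 other scaling. The test of any difference was not run with only the libraries compared, since it uses all of them.

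Replicate numbers were not taken to pair the samples. Same-numbered libraries had correlations of -0.389 to 0.082 in their deviations from the group means, and differently numbered ones -0.295 to 0.395. Deviations within a group of 2 or 3 libraries are tied to each other, so these values cannot decide whether samples were paired. With the replicate block, 900 genes varied among the times against 1872, 145 against 352 from 24 h to 48 h and 1159 against 2171 from 48 h to 96 h, and transcript usage calls numbered 49, 179 and 73 against 199, 520 and 195. The CDX2 step from 48 h to 96 h was then 0.54 (adjusted p = 0.0526).

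Other counts over all genes also moved by over 1.5 times. With only the libraries compared, 4072 genes were called at 48 h against 6591, 3450 at 96 h against 2083 and 113 from 24 h to 48 h against 352, and usage calls fell to 143 at 48 h and 124 at 96 h. DESeq2 called 541 from 24 h to 48 h. Leaving out a 24 h library gave 1500 to 2084 calls at 24 h against 3484, and 1239 to 1334 were called at 96 h without replicate 2 of either genotype or knockdown replicate 3. Without knockdown replicate 3 of 48 h, 5035 genes varied among the times, 1543 from 24 h to 48 h and 5252 from 48 h to 96 h. Leaving out another library gave at the lowest 1052, 99 and 1268. Of genes called from 48 h to 96 h 61.6% had a higher difference, and 29.8%, 40.6% and 49.4% under the total-count, upper-quartile and abundance-dependent scalings. From 24 h to 48 h it was 60.5%, against 34.2% with total-count scaling and 45.3% with DESeq2. The gene lists were refitted under the scalings and without knockdown replicate 3 of 48 h after the data were seen. Depth limits CDX1 and ATOH1, and 2 or 3 libraries a group limit the rest.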
